A study of Mus musculus with 12 samples.

Results

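The antibody panel was a cocktail of DNA-barcoded antibodies against mouse surface proteins (TotalSeq-B Mouse Universal Cocktail), with 95 antibodies to a target and 7 isotype controls without one. All features that the matrices mark as antibody capture were taken, which left 32285 genes of the 32387 features. The cells came from B16-F10 melanomas grown in the skin of Rag1-deficient mice (B6.129S7-Rag1tm1Mom/J), a host without T and B cells of its own. All 6 mice received Pmel Thy1.1 CD8+ T cells, which recognise a melanoma antigen: in 3 control mice the T cells had been cultured with vehicle, and in 3 others with CAL-101, which blocks the delta form of phosphoinositide 3-kinase. Live CD45.2+ cells were sorted from part of each tumour before the panel was added, so the cells entering the assay had already met an antibody to CD45.2. Each mouse gave 1 library of transcripts and 1 of tags from the same cells. The sources used here give no age for the mice.

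In this assay, an antibody carries a short DNA barcode that is captured in the same droplet as a cell's messenger RNA, and the number of different captured molecules (tags) reports how much antibody the droplet held. Tags come from antibody bound to its target, from antibody held by Fc receptors or dying cells, and from antibody free in the droplet. Isotype controls match the panel's antibody classes and bind no mouse antigen, so they measure the last 3 sources. The amount of each antibody in the cocktail also sets its number of tags, so levels were compared between cells for 1 antibody, and 2 antibodies' levels were not read as 2 proteins' levels.

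Each antibody is identified by a barcode of 15 bases that follows 10 unread bases. Those of 5 antibodies that separate the cell types of these tumours, and of 1 isotype control, are printed from 5′ to 3′ because every value below is a count of one of these sequences. The whole barcode is in capitals, since all its bases are read.
CD8a: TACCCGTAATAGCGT
NK-1.1: GTAACATTACTCGTC
CD90.2: CCGATCAGCCGTTTA
Ly-6G: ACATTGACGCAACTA
I-A/I-E: GGTCACCAGTATGAT
RTK2071 isotype: ATCAGATGCCCTCAT
All barcodes of the panel held 6 to 8 G or C bases each. Any 2 of them differed at 4 or more positions, so a single sequencing error could not turn one into another.

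The 6 libraries held 6152 to 9147 cells and 12748632 to 18237209 tags each, 90525061 tags over 45477 cells. Of the 45228 different cell barcodes, 249 (0.551%) occurred in more than 1 library, and any pair of libraries shared 8 to 31. A group of 27 cells with over 20000 tags each held 1.40% of all tags, and 24 of them came from the CAL-101 mice (6, 8 and 10 cells, against 2, 1 and 0 in the controls). Results that these cells moved are given with and without them. The deposited labels gave 32861 T cells (labels for T, CD8+ T and CD4+ T cells merged), 11687 NK cells, 414 neutrophils, 360 cells labelled monocytes and 127 dendritic cells. The labels with the fewest cells, 13 basophils, 8 B cells and 7 progenitors, were not tested. The sources used here do not say how the labels were made or whether the tags took part, so a difference in tags between labels may be partly built in.

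The share of each antibody among all tags of a cell type was computed per mouse, and values are given as the mean ± SD over 6 mice. The 7 isotype controls together took 0.349% ± 0.0344 of tags in T cells, 0.467% ± 0.0795 in NK cells, 0.440% ± 0.0825 in neutrophils, 0.455% ± 0.0753 in cells labelled monocytes and 0.392% ± 0.0709 in dendritic cells. The median cell held 1822 tags in T cells, 978 in NK cells, 2791 in neutrophils, 2387 in cells labelled monocytes and 2751 in dendritic cells. RTK2071 (0.0793%), MOPC-173 (0.0771%) and MOPC-21 (0.0642%) were the highest isotype controls in T cells, and HTK888 was the lowest in all 5 types, at 0.0163% to 0.0270%. The isotype controls therefore spanned a range of several fold among themselves, and the highest of them was used as the background.

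An antibody was called above background when its tags exceeded those of the highest isotype control in every mouse and limma's moderated test on the log2 ratio gave a Benjamini-Hochberg adjusted p under 0.05 over the 95 antibodies. This held for 83 of 95 antibodies in T cells (87.4%), 84 in NK cells (88.4%), 73 in neutrophils (76.8%), 78 in cells labelled monocytes (82.1%) and 74 in dendritic cells (77.9%). Most of the panel was thus above the isotype controls in every type, including types that do not make the target. The median ratio over the highest isotype control was 4.14 in T cells, 4.74 in NK cells, 3.22 in neutrophils, 3.71 in cells labelled monocytes and 3.91 in dendritic cells. When an antibody also had to reach 2 times the highest isotype control in every mouse, 67, 70, 58, 60 and 55 antibodies passed. Against the mean of the 7 isotype controls, 93, 93, 88, 90 and 86 passed.

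**Figure D1:**
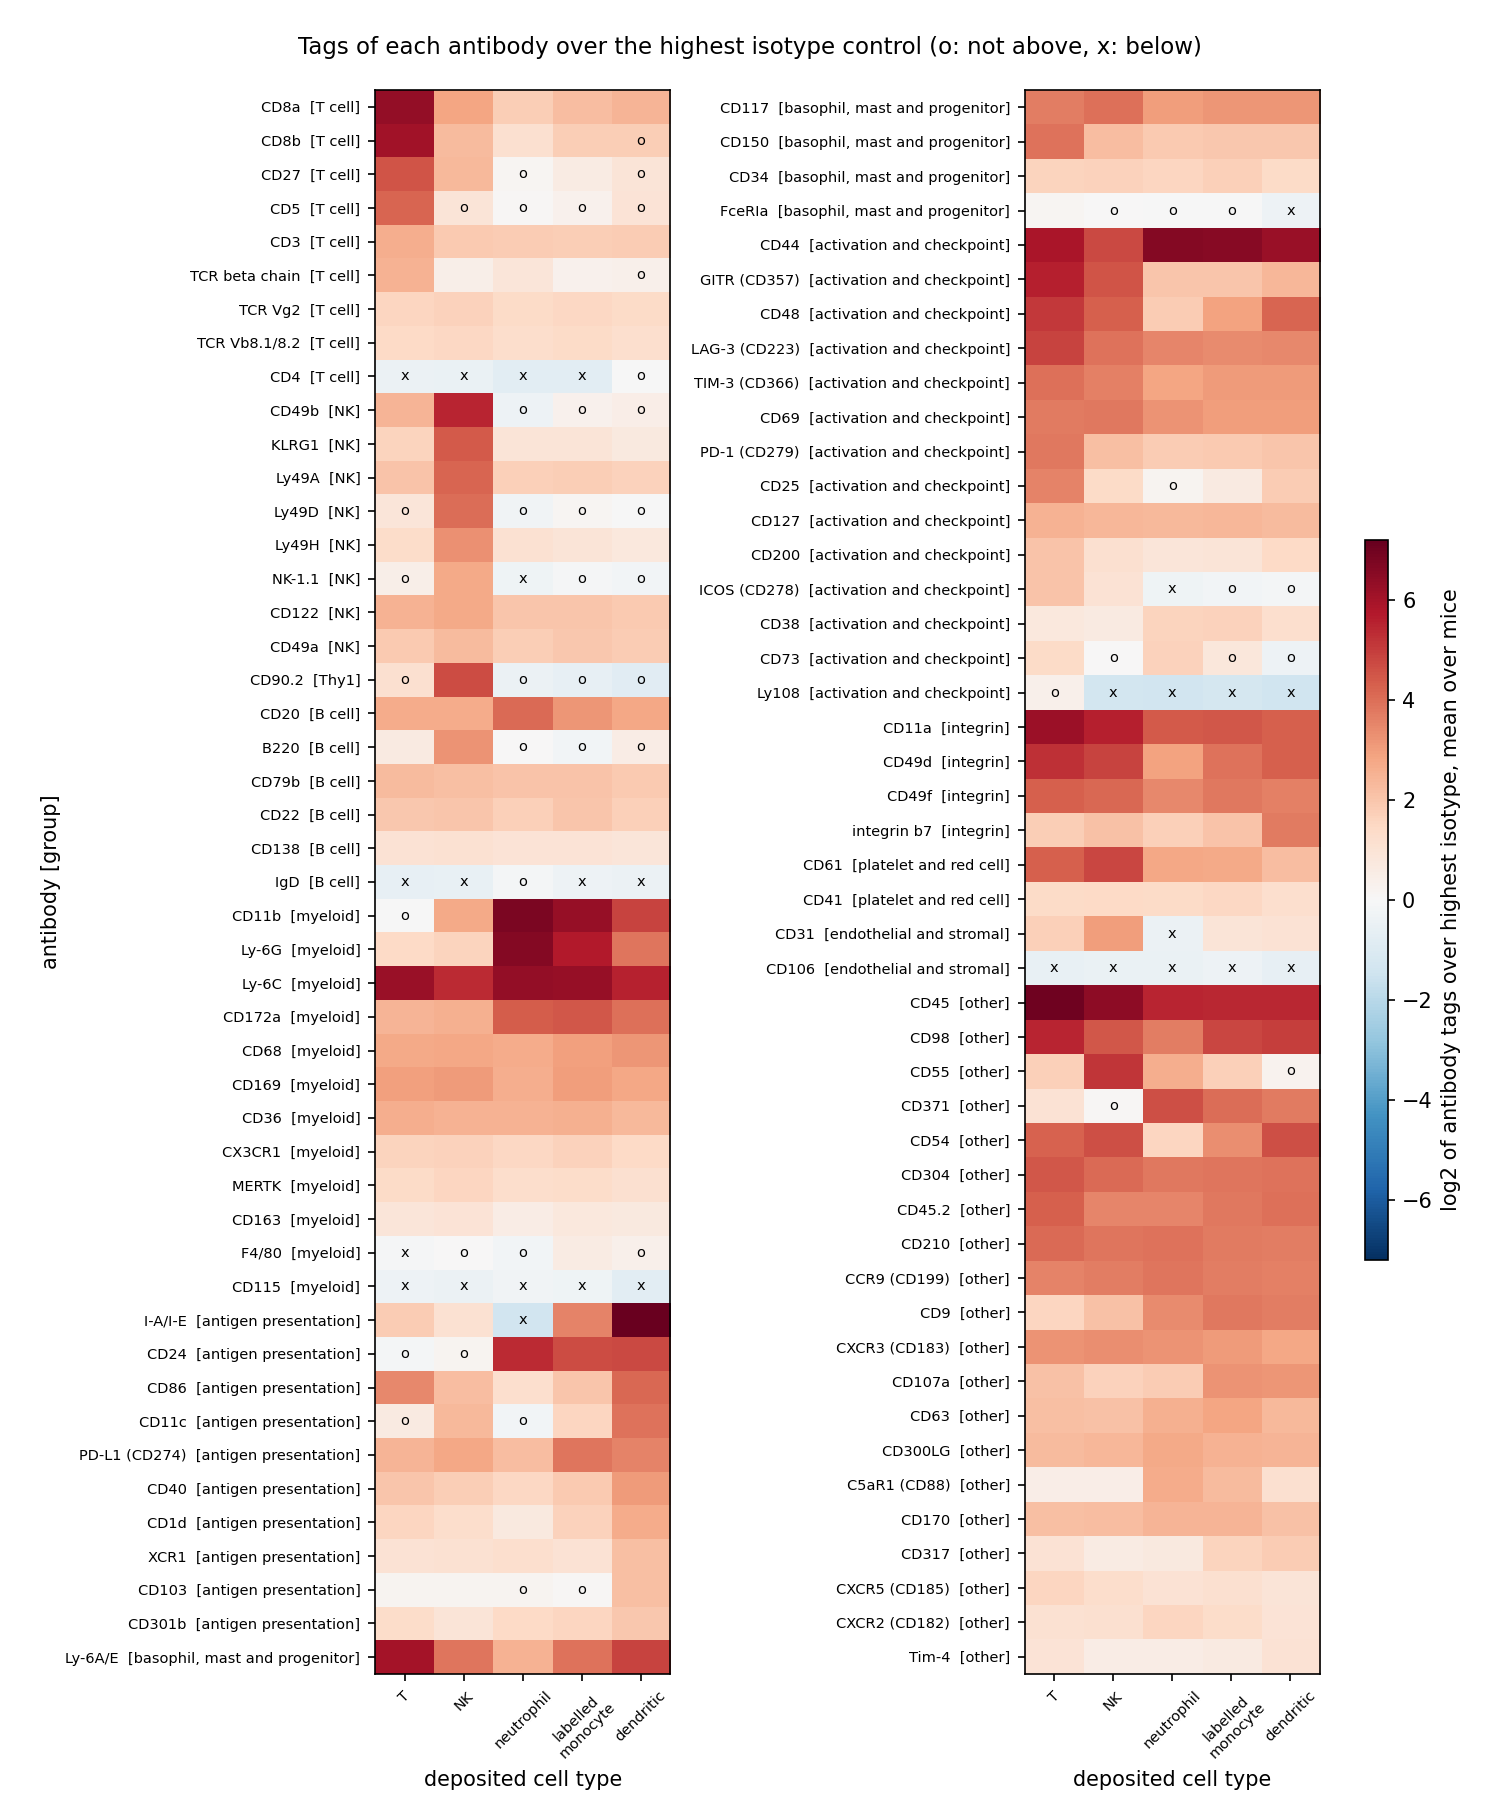
Log2 ratio of the tags of 93 of the 95 antibodies (rows, with the antibody's group) to those of the highest isotype control in 5 deposited cell types (columns), as the mean over 6 mice, with o for antibodies not called above it and x for those below it at an adjusted p under 0.05. Most squares are red in all 5 columns, and the deep red squares, such as CD8a in T cells, CD49b in NK cells, CD11b and Ly-6G in neutrophils and I-A/I-E in dendritic cells, differ from column to column.

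In T cells the 8 antibodies with the most tags were CD45, CD8a, Ly-6C, CD11a, CD8b, Ly-6A/E, CD44 and GITR, which together took 48.4% ± 2.77 of tags. CD8a, the alpha chain of the coreceptor for MHC class I, took 5.76% (lowest mouse), 6.41% (median) and 7.61% (highest), or 147 ± 31.5 tags per cell. CD8b, the beta chain, took 5.08%, 5.32% and 5.78%. Both coreceptor chains were far above the isotype controls in every mouse, with ratios of 81.9 and 67.0. CD5, which dampens T cell receptor signals, took 0.927%, 1.57% and 2.08%, and CD27, a costimulatory receptor, 1.54%, 1.98% and 2.23%. The antibodies to the receptor itself gave less: TCR beta chain took 0.460% of tags and CD3 0.50%. Of the 9 T cell antibodies, 8 were above the isotype controls, a share near the 87.4% of all 95 antibodies in T cells, and CD4 was below them (ratio 0.74). The 15 activation and checkpoint antibodies included LAG-3 at 2.34%, TIM-3 at 1.25%, PD-1 at 1.11% and CD25 at 0.962%, and 14 of them were above the isotype controls, again near the 87.4% of the panel, the exception being Ly108.

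In NK cells the 8 leading antibodies took a smaller share, 36.0% ± 3.83, and were CD45, CD11a, CD49b, Ly-6C, CD55, CD49d, CD61 and CD44. All 8 antibodies of the NK group were above the isotype controls, against 88.4% of all 95, with a median ratio of 13.2 against 4.74 for all 95. CD49b, an integrin alpha chain used to define mouse NK cells, took 3.60%, 4.81% and 5.95% in the lowest, median and highest mouse. KLRG1, an inhibitory receptor of mature NK cells, took 1.94%, 2.17% and 2.87%. NK-1.1, the classical NK marker of this strain, took only 0.492%, 0.722% and 0.875%, and its lowest mouse was still above the isotype controls. The Ly49 family of MHC class I receptors was represented by Ly49A (1.95% ± 0.389), Ly49D (1.76% ± 0.406) and Ly49H (1.05% ± 0.183). CD90.2, the Thy1.2 form of Thy1, took 2.23%, 2.62% and 4.09%. The transferred T cells carry the Thy1.1 form, which this antibody does not bind, so CD90.2 marks host lymphocytes here. CD9 varied most between the mice, from 0.189% to 4.21%, with 3 control mice between 0.189% and 0.202% and the CAL-101 mice at 4.21%, 1.14% and 0.245%; in cluster 0, the largest NK cluster, its share fell from 1.43% to 0.402% without the cells of over 20000 tags.

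In neutrophils the 8 leading antibodies took 57.7% ± 5.09, the highest of the 5 types: CD11b, Ly-6G, CD44, Ly-6C, CD45, CD24, CD371 and CD11a. Ly-6G, the defining surface protein of mouse neutrophils, took 9.02%, 10.6% and 13.7%, and CD11b, the integrin alpha chain shared by myeloid cells, 10.7%, 12.4% and 14.3%. The anaphylatoxin receptor C5aR1 took 0.468%, 0.763% and 0.819%. The MHC class II antibody I-A/I-E took 0.0347%, 0.0409% and 0.0507%, below the highest isotype control in every mouse. Of the 12 myeloid antibodies, 10 were above the isotype controls in neutrophils, near the 76.8% of the panel, with a median ratio of 5.99 against 3.22 for all 95. The antibody to CD115, the receptor for macrophage colony-stimulating factor, was below the isotype controls in all 5 types, as was CD106.

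Dendritic cells were led by I-A/I-E, MHC class II, at 9.16%, 14.002% and 20.1% of tags, with a ratio of 138 over the highest isotype control. All 10 antigen presentation antibodies were above the isotype controls in them, against 77.9% of all 95, with a median ratio of 10.2 against 3.91 for all 95. CD11c, an integrin alpha chain of dendritic cells, took 0.757%, 1.91% and 2.50%, and the costimulatory ligand CD86 took 1.12%, 1.65% and 4.16%. XCR1 and CD103, found on cross-presenting dendritic cells, took 0.253%, 0.438% and 1.01%, and 0.150%, 0.408% and 1.24%. Each was above its level in the other types on average, with dendritic cell values that spread widely between mice, as the 11 to 39 cells per mouse allow.

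Cells labelled monocytes varied more between mice. They carried Ly-6G at 2.52%, 6.50% and 11.4%, CD11b at 6.27%, 8.45% and 13.1%, and I-A/I-E at 0.354%, 1.43% and 3.10%. These values ran from near those of neutrophils to far from them, depending on the mouse. CD115 (0.0898%) was below the isotype controls and the macrophage protein F4/80 reached only 0.183%, which is 1.49 times the highest isotype control.

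**Figure D2:**
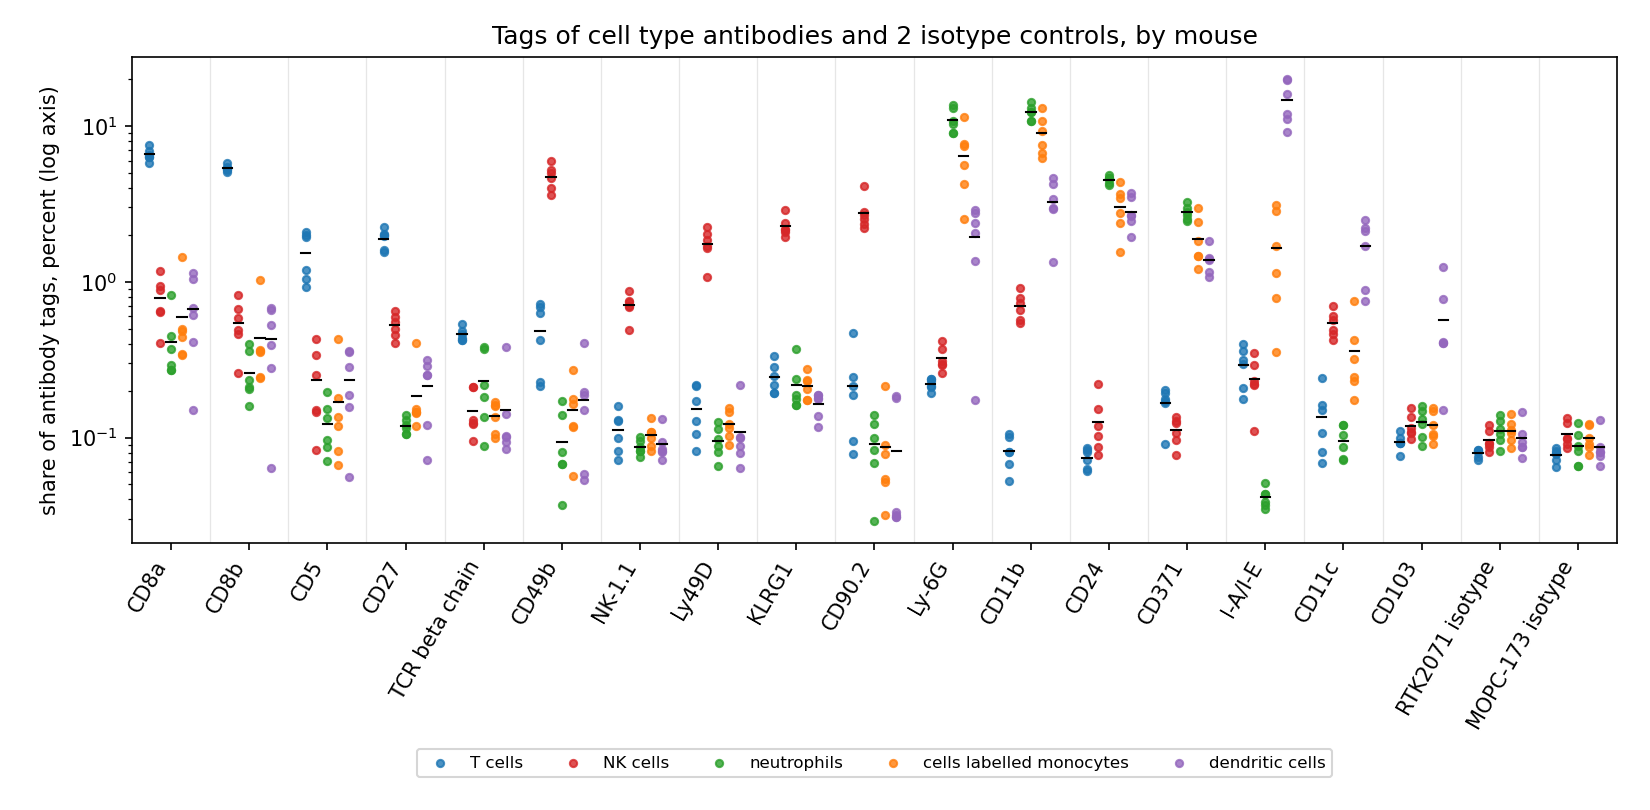
Share of antibody tags in percent (log axis) for 17 cell type antibodies and 2 isotype controls, 1 point per mouse and cell type, with the mean as a bar. The CD8a points of T cells (5.76% to 7.61%), the CD49b points of NK cells (3.60% to 5.95%) and the I-A/I-E points of dendritic cells (9.16% to 20.1%) lie above the points of every other type, while Ly-6G and CD11b are shared by neutrophils and cells labelled monocytes.

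Differences between types were tested on tags summed per mouse, with the mouse as a block and NK cells, the most numerous host cells, as the reference (edgeR's quasi-likelihood test on TMM-normalised sums, Benjamini-Hochberg adjustment over the whole panel, isotype controls included). In T cells 29 antibodies were higher (28.4% of the panel) and 52 lower (51%), with a median log2 difference of -0.20 (0.0085 relative to the isotype controls). That split depends on the scaling: it was 41 higher and 24 lower relative to the isotype controls, 25 and 62 relative to all tags, and 38 and 38 with DESeq2. Without the cells of over 20000 tags it was 33 higher and 46 lower. Under all 4 scalings, 25 antibodies were called higher and 24 lower. The antibodies of the NK group moved as one: all 8 of 8 were lower in T cells, with a median log2 difference of -2.41, and all 8 were called lower under each scaling. Of the 9 T cell antibodies, 6 were higher and 2 lower, and of the 15 activation and checkpoint antibodies 10 were higher and 2 lower.

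The largest increases in T cells over NK cells on the log2 scale were CD8b (3.58 ± 0.20, standard error), CD8a (3.34 ± 0.19), CD5 (3.05 ± 0.13), CD27 (2.06), CD25 (2.00), Ly-6A/E (1.94), TCR beta chain (1.90), CD150 (1.47), PD-1 (1.44) and CD73 (1.15). Among the largest decreases were CD90.2 (-3.71), CD55 (-3.64), Ly49D (-3.37), CD49b (-3.24), KLRG1 (-3.03), CD11b (-2.92), B220 (-2.75), NK-1.1 (-2.50) and Ly49A (-2.32). All of these were called in the same direction under the 4 scalings. The differences pool both treatment groups, and some depended on the group. For CD73 the effect of CAL-101 in T cells less that in NK cells was 1.28 on the log2 scale (limma, adjusted p = 0.0161). TCR beta chain, CD25, Ly49A, B220, CD49b and CD11b also differed between the types in that effect, as given below. The CD73 shares in T cells of each mouse are given below by treatment group. By edgeR's quasi-likelihood test with Benjamini-Hochberg adjustment, the p was 9.47e-07 for CD5, 2.97e-06 for CD8b, 3.32e-06 for CD90.2 and 4.96e-08 for KLRG1. CD25 is the alpha chain of the interleukin-2 receptor, and CD55 an inhibitor of complement.

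Against NK cells, 44 antibodies were higher (43.1%) and 36 lower (35.3%) in neutrophils, 28 higher (27.5%) and 32 lower (31.4%) in cells labelled monocytes, and 29 higher (28.4%) and 27 lower (26.5%) in dendritic cells. For neutrophils the split turned to 19 higher and 51 lower relative to all tags, and to 29 and 45 relative to the isotype controls. For dendritic cells it was 31 and 21 relative to the isotype controls and 23 and 32 relative to all tags. Calls shared by all 4 scalings numbered 19 higher and 36 lower in neutrophils, 21 and 30 in cells labelled monocytes, and 23 and 20 in dendritic cells. Isotype controls themselves were called in the main comparison, 5 in T cells, 5 in neutrophils, 3 in cells labelled monocytes and 1 in dendritic cells, and 3 in neutrophils and 2 in cells labelled monocytes were called under all 4 scalings. Small differences in this comparison are therefore of the size seen for antibodies without a target.

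The large differences were far outside that range. In neutrophils CD24 (5.51), Ly-6G (5.33 ± 0.16), CD371 (4.92), CD11b (4.40) and C5aR1 (2.51) were higher on the log2 scale, and CD49b (-5.55), CD90.2 (-4.79), Ly49D (-3.95) and KLRG1 (-3.20) were lower. Dendritic cells exceeded NK cells for I-A/I-E (6.14 ± 0.32), CD24 (4.69), CD371 (3.80), Ly-6G (2.46, in 5 of 6 mice) and CD11b (2.31). All 10 antigen presentation antibodies were higher in dendritic cells, with a median log2 difference of 1.61 against -0.06 for the whole panel (0.037 relative to the isotype controls), and all 10 kept that call under each scaling. Cells labelled monocytes exceeded NK cells for CD24 (4.63), Ly-6G (4.22), CD371 (4.06), CD11b (3.69) and I-A/I-E (2.58).

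Many antibodies hardly distinguished the types. The mean share in the highest of the 5 types was under 2 times that in the lowest for 38 of 95 antibodies, at least 5 times for 33, at least 10 times for 17 and at least 100 times for only I-A/I-E and CD11b. The median ratio was 2.78, and the isotype controls ranged from 1.31 to 1.74. A low ratio did not mean few tags: 12 antibodies took over 0.5% of tags in every type and still differed by under 2 times. Among them, CD304 (neuropilin-1) took 1.81% in T cells and 1.53% in dendritic cells, CD210 (the interleukin-10 receptor) 1.35% in T cells and 1.71% in neutrophils, and CCR9, a gut-homing chemokine receptor, 0.998% in T cells and 1.67% in neutrophils. CD3 differed little as well: 0.50% in T cells against 0.397% to 0.412% in the other types.

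**Figure D3:**
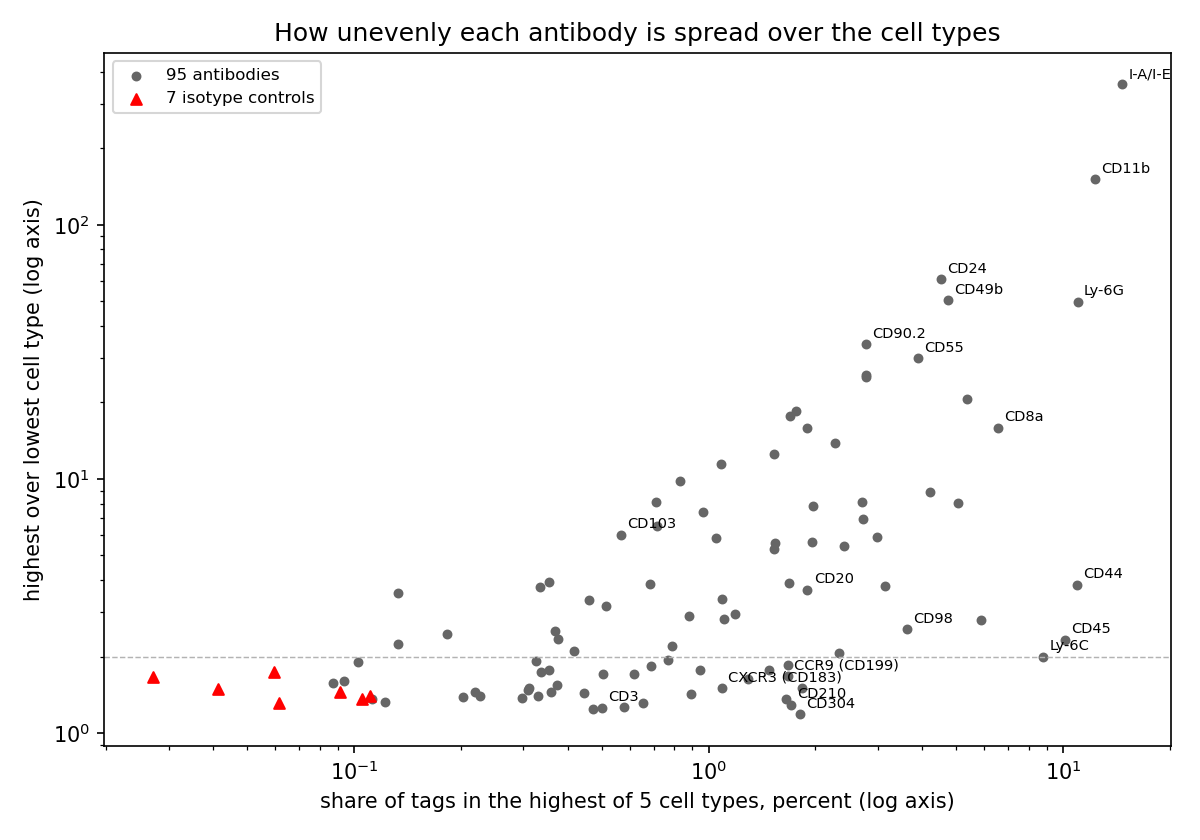
Ratio of the highest to the lowest of 5 cell types (log axis) against the share of tags in the highest type in percent (log axis), 1 grey point per antibody and 1 red triangle per isotype control, with a dashed line at 2 times. The isotype controls lie between 1.31 and 1.74 times, and 38 antibodies lie under the dashed line, some of them with over 1% of tags.

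Antibodies to proteins of B cells and of other T cells also gave tags, although the host makes no mature B cells. CD20, a B cell membrane protein, took 0.518% of T cell tags, 0.689% of NK cell tags and 1.90% of neutrophil tags, and in neutrophils it was 16.6 times the highest isotype control. Its highest type was 3.67 times its lowest, and B220, in the same group, differed 11.4 times. Its gene Ms4a1 reached at most 0.446 CPM (transcript UMIs scaled to the same total in every cluster) in any cluster. CD22 (ratio 3.84 in T cells), CD79b (4.78) and CD138 (2.02) were above the isotype controls in all 5 types, and IgD was in none. Between types, CD22, CD79b and CD138 differed by 1.44, 1.24 and 1.40 times. The antibody to TCR Vb8.1/8.2, a beta chain family other than that of the Pmel receptor, took 0.216% in T cells and 0.298% in NK cells, a ratio of 1.38 between its highest and lowest types. Of 11 antibodies whose transcript stayed under 5 CPM in every cluster, 9 were above the isotype controls in every mouse in at least 1 cluster. Nearly the whole panel was: of 93 antibodies compared with a transcript, another 80 were above in a cluster and reached 5 CPM. The 9 of 11 is therefore not particular to antibodies with little transcript. What these tags were bound to was not tested.

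Single cells above their own isotype controls were also counted, for CD8a and CD117. CD8a exceeded the cell's own highest isotype control in 95.8% of T cells, and also in 53.0% of NK cells, at median depths of 1822 and 978 tags. CD117, the stem cell factor receptor, did so in 99.7% of T cells and 99.4% of NK cells. The share of tags, 6.57% in T cells against 0.781% in NK cells for CD8a, set these types further apart than the share of cells.

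The 14 deposited clusters divided the T and NK cells further. Clusters 1 to 5 were the CD8 T cell clusters, with CD8a at 6.66% to 7.34% of tags and CD90.2 at 0.0523% to 0.0700%. Cluster 5 had the most Ly108, a marker of progenitor-like exhausted T cells, at 0.309% against 0.0653% to 0.105% in the other 4, though without the cells of over 20000 tags its value was 0.123%. GITR, a costimulatory receptor of the tumour necrosis factor receptor family, was lowest in cluster 5 (3.30%) and lay between 4.41% and 4.72% in the other 4. CD25 was 0.571% in cluster 5 and 1.25% in cluster 2.

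Cells labelled NK formed clusters with different surface profiles. Cluster 0 had the most CD49b (7.25%), Ly49D (2.45%) and NK-1.1 (0.966%). In cluster 7, CD55 (8.94%), CD61 (6.34%), CD90.2 (4.61%), KLRG1 (4.44%) and B220 (1.73%) were high. In cluster 13, with 73 cells and 10 or more in just 3 mice, CD55 took 24.8% of tags and CD61, the integrin beta-3 chain, 12.8%, both more than in cluster 7. CD90.2 (3.61%), KLRG1 (4.29%) and B220 (1.41%) were slightly below their cluster 7 shares, and CD49b was at 0.999% against 2.42%. Of the 73 cells, 67 were labelled NK. The genes of CD49b (Itga2) and Ly49D (Klra4) were at 1.79 and 0 CPM in cluster 13, against 123 and 326 CPM in cluster 0. Those of Ly49H (Klra8) and KLRG1 were at 76.5 and 358 CPM in cluster 13. Which lymphocytes it holds was not tested. Cluster 9 had CD49b at 4.59% and CD90.2 at 3.38%. These clusters were made from the same cells, so their differences are a description.

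**Figure D4:**
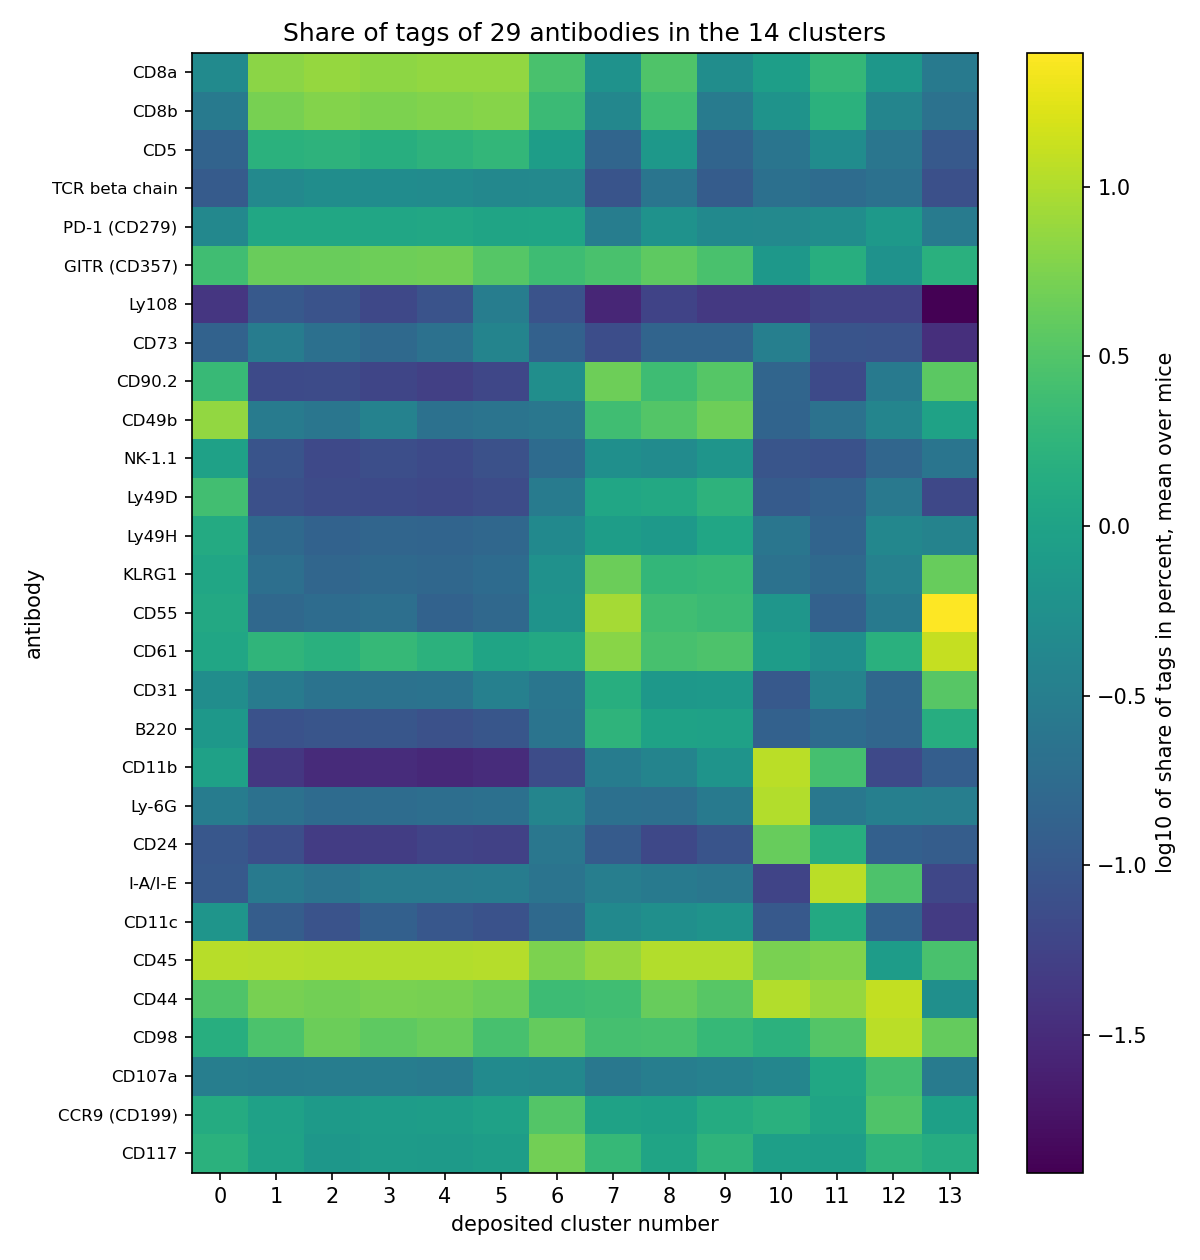
Share of tags of 29 antibodies (rows) in the 14 deposited clusters (columns), as log10 of the mean percent over mice with at least 10 cells. CD8a and CD8b are bright in clusters 1 to 5, CD90.2 in 0, 7, 8, 9 and 13, CD11b and Ly-6G in 10, I-A/I-E in 11, CD44 and CD98 in 12, and CD117 in 6, the last only with the cells of over 20000 tags.

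The tags went against some labels. In the T class in clusters 1 to 5 (28518 cells) CD90.2 took 0.0618% ± 0.0194 of tags, CD49b 0.270% and CD8a 7.08%. In the T class in clusters 0, 7, 9 and 13 (1910 cells) CD90.2 took 2.88% ± 0.440, CD49b 4.84% and CD8a 1.24%. In CD90.2 and CD49b these resemble the NK cells in clusters 0, 7, 9 and 13 (10216 cells), which had 3.00% and 5.47%. Their CD8a share was higher than the 0.366% of those NK cells. The T class in cluster 8 (597 cells) had CD8a at 4.77% together with CD90.2 at 1.28% and CD49b at 2.33%, and the NK cells in cluster 8 (820 cells) had 1.04%, 3.61% and 4.34%. Both labels in cluster 8 thus carried tags of both lineages. The 167 labelled CD4+ T cells had CD4 at 0.0888% ± 0.0432 and CD8a at 3.60% ± 1.11.

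The monocyte and dendritic cell labels each covered cells of different profiles. The 232 monocytes in cluster 10 had Ly-6G at 10.7% ± 1.43, CD11b at 12.6% and I-A/I-E at 0.0568%, next to 11.01%, 12.3% and 0.0412% in the neutrophils in cluster 10. The 109 monocytes in cluster 11 had Ly-6G at 0.368%, Ly-6C at 10.3%, CD11b at 4.87% and I-A/I-E at 3.39%. Of the dendritic cells, the 99 dendritic cells in cluster 11 had I-A/I-E at 17.8% ± 4.73, CD11c at 2.07% and Ly-6G at 0.165%. The 20 dendritic cells in cluster 10, pooled over mice, had Ly-6G at 9.06% and I-A/I-E at 0.0512%. The Ly-6G share of the dendritic cells in cluster 11 was below that of NK cells (0.324%), so the higher Ly-6G of the whole label, given above, came with its cells in cluster 10. In transcripts over whole labels, S100a8 reached 24724 CPM in neutrophils and 2376 CPM in cells labelled monocytes, and Lyz2 reached 1750 CPM in cells labelled monocytes. These values do not separate the clusters, and Lyz2 in neutrophils is not given here. Over all cells of clusters 10 and 11, the neutrophil gene Cxcr2 was at 279 and 1.51 CPM. The monocyte and macrophage genes Csf1r (31.3 and 88.7 CPM) and Adgre1 (19.8 and 38.3 CPM) were higher in cluster 11. All 3 melanoma genes were found in cells labelled monocytes (3540 CPM summed) and dendritic cells (2250 CPM), against 2.33 CPM in T cells. Of these labels, 19 monocytes and 8 dendritic cells lay in cluster 12, described below, which expressed the same genes. How these transcripts were divided among the clusters of each label, and their part in these tags, was not tested.

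Clusters 6 and 12 held cells with little RNA. Cluster 6 (2126 cells) had a median of 865.5 transcript UMIs, 34.9% of them mitochondrial, and its isotype controls took 0.721% of tags. CD117 (4.87%), CCR9 (3.20%) and CD20 (2.40%) had their highest means there. Without the cells of over 20000 tags CD117 fell to 1.83% in cluster 6, below the 2.03% of cluster 7, so its rank rested on those cells. CCR9 and CD20 stayed highest in cluster 6 without them, just above cluster 12 (3.06% and 2.28%). Cluster 12 (118 cells, 10 or more in 4 mice) expressed the melanoma genes Dct (4230 CPM), Tyrp1 (2942 CPM) and Mlana (1395 CPM). Its tags were led by CD44 (12.5%), a hyaluronan receptor, and CD98 (11.2%), the heavy chain of amino acid transporters, and CD45 took 0.839%. Its isotype controls took 0.741% of a median of 475.5 tags per cell. Both clusters thus had few transcript UMIs and a high isotype share. The median of tags was low in cluster 12 but not in cluster 6 (1026, against 857 in cluster 0), and the part of these states in the shares was not tested.

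Tags were then set against the transcript of the gene that encodes each target, across the 14 clusters, as the mean over mice of the share of tags and of CPM. The points share libraries, depth and free antibody, so the correlations are a description without a p. Of 94 antibodies with a gene in the matrices, 93 had a value, and the median Spearman correlation was 0.42. Among the 80 whose tags were above the isotype controls in at least 1 cluster and whose transcript reached 5 CPM, the median was 0.48, 38 had 0.5 or more and 11 were negative. Only 29 of the 80 had tag and transcript highest in the same cluster. Antibodies with a wide range of tags followed their transcripts more closely: the median was 0.75 for the 45 whose highest cluster was at least 5 times the lowest, and 0.24 for the other 35. The latter followed the isotype controls instead, with a median correlation of 0.69 with the summed isotype share, against 0.10 for the former. Within single mice the median over all antibodies ranged from 0.272 to 0.412.

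By target, the median correlation was 0.84 for 8 T cell antibodies, 0.81 for 8 NK antibodies and 0.74 for 15 activation and checkpoint antibodies, against 0.43 for 10 antigen presentation, 0.18 for 12 myeloid and 0.09 for 6 B cell antibodies. The 8 highest were CD371 (0.94), KLRG1 (0.93), CD44 (0.92), Ly49H (0.92), Ly49D (0.91), CD27 (0.90), CD5 (0.89) and CD8a (0.89). KLRG1 was at 4.44% of tags in cluster 7 with Klrg1 at 275 CPM, and at 0.153% in cluster 2 with 1.44 CPM. CD8a had 7.34% of tags in cluster 2 with Cd8a at 376 CPM, and 0.477% in cluster 0 with 24.3 CPM. Both pairs moved over more than 10 times in protein and transcript alike.

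**Figure D5:**
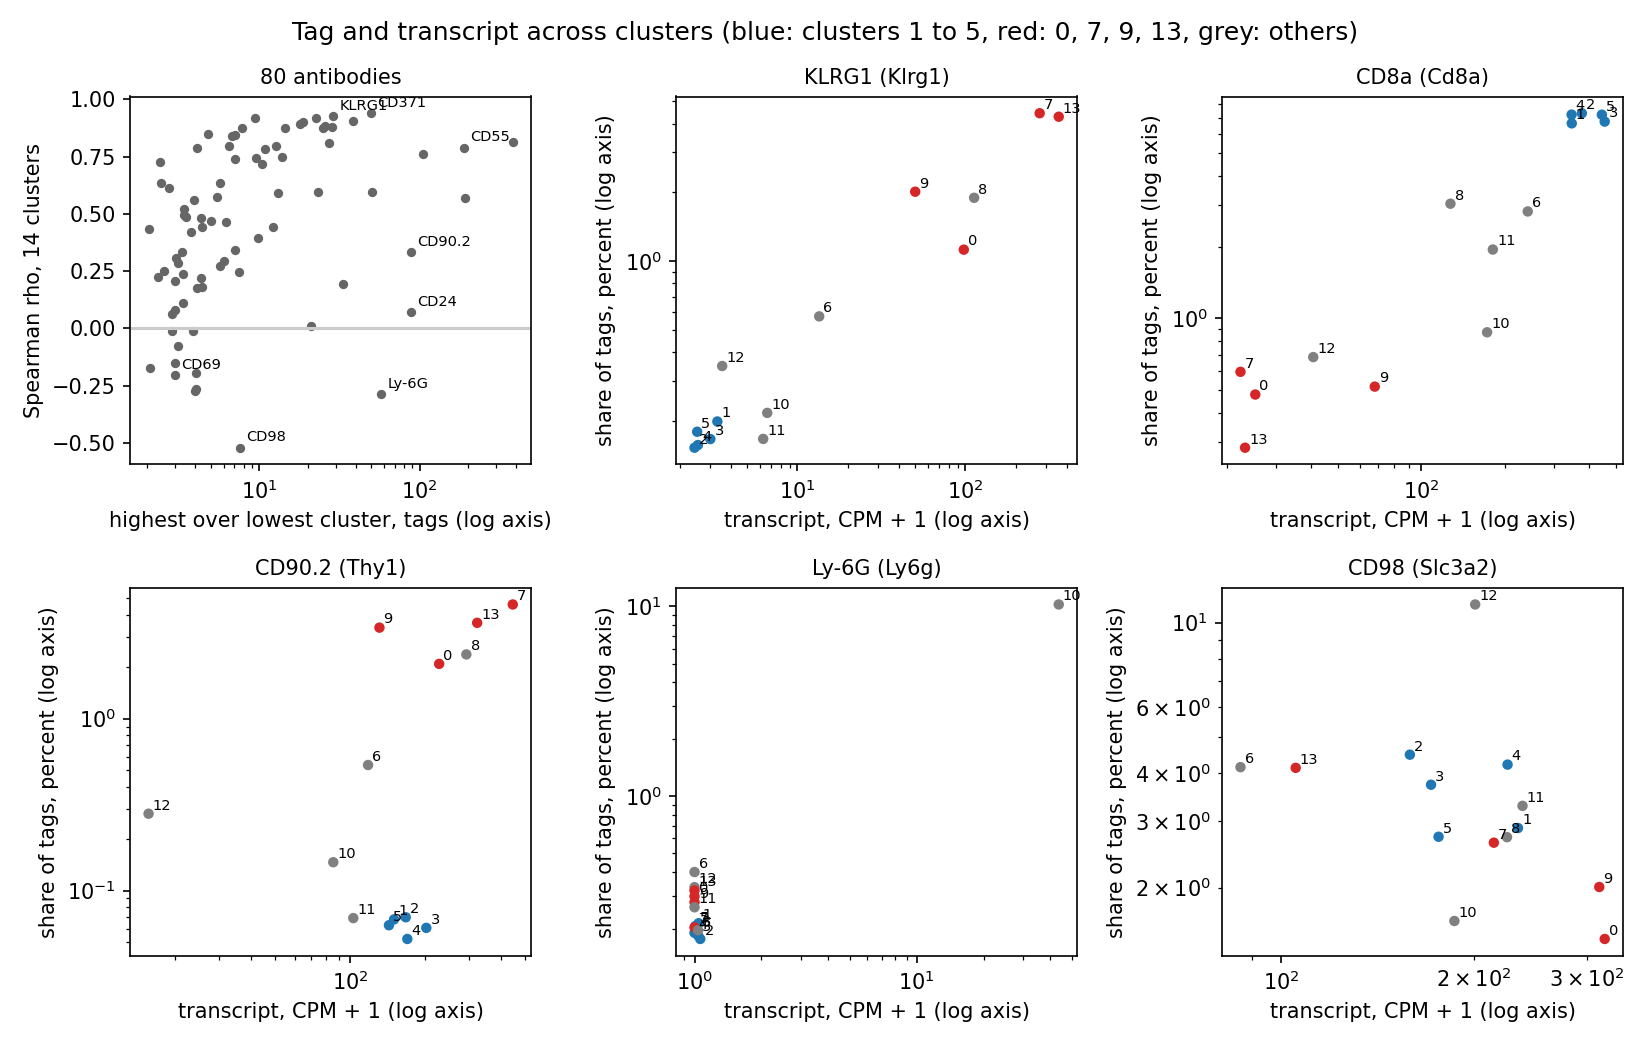
First panel: Spearman correlation of tag and transcript over 14 clusters against the ratio of the highest to the lowest cluster in tags (log axis) for 80 antibodies. Other panels: share of tags in percent against transcript CPM + 1 (log axes), 1 numbered point per cluster, for KLRG1, CD8a, CD90.2, Ly-6G and CD98. For CD90.2, clusters 1 to 5 lie below clusters 0 and 9 at similar transcript levels. Cluster 11 lies about as low as clusters 1 to 5 with less transcript. For Ly-6G only cluster 10 stands apart.

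The 8 lowest were CD98 (-0.52), Ly-6G (-0.29), XCR1 (-0.27), CD170 (-0.26), CD69 (-0.20), CCR9 (-0.20), CD36 (-0.17) and MERTK (-0.15). For Ly-6G the rank measure misleads: Ly6g was at 42.6 CPM with 10.2% of tags in cluster 10, all other clusters had 0.177% to 0.399%, and the Pearson correlation of log2 values was 0.97. CD24, also confined to few clusters, had 0.07 by rank and 0.93 by Pearson. XCR1 had 0.346% of tags in cluster 11, the only cluster with more than 1 CPM of Xcr1 (44.4 CPM), and more in clusters 6 (0.448%) and 12 (0.479%), where Xcr1 was at 0. Of these 8 correlations, only that of CD98 stayed negative under every alternative run. For CD98, whose gene is Slc3a2, cluster 12 had the most tags at 200 CPM, and cluster 0 had the fewest, 1.46%, at 319 CPM, the highest transcript level.

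CD90.2 differed from its transcript in 1 group of clusters. Thy1 was at 142 to 201 CPM in clusters 1 to 5, where the antibody to the Thy1.2 form took at most 0.0700% of tags, and at 130 to 446 CPM in clusters 0, 7, 9 and 13, where it took 2.08% to 4.61%. B220, an antibody to a spliced form of CD45, had a correlation of 0.01 with the common transcript Ptprc, while the antibody to all forms of CD45 had 0.59.

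Between the treatment groups, 22 antibodies differed in T cells (21.6% of the panel; 7 higher and 15 lower with CAL-101) and 1 in NK cells (0.98%), by edgeR's quasi-likelihood test. Of the T class, 5.84%, 13.8% and 7.68% of cells with vehicle and 6.24%, 1.52% and 2.60% with CAL-101 lay in clusters 0, 7, 9 and 13. Most cells of those clusters were labelled NK. With T cells of clusters 1 to 5 alone, 17 antibodies differed, 9 higher and 8 lower, and 15 of them were among the 22. In T cells GITR took 5.51%, 6.41% and 5.80% of tags with vehicle and 2.62%, 2.53% and 2.46% with CAL-101, a log2 change of -1.37 (adjusted p = 0.000171). CD73, an ectoenzyme that makes adenosine, took 0.109%, 0.141% and 0.104% against 0.405%, 0.387% and 0.288% (log2 1.46, adjusted p = 0.00647). The groups did not overlap for either antibody, but both were picked by their small p, so this adds no support. B220 was lower with CAL-101 in both types: in NK cells it took 1.56%, 1.502% and 1.64% against 0.607%, 0.655% and 0.554% (log2 -1.62, adjusted p = 0.000882). In T cells the B220 change was -1.07 (adjusted p = 0.00126), and -0.54 (adjusted p = 0.0610) in T cells of clusters 1 to 5 alone. The other T cell antibodies named by the smallest p were CD5 (0.77), CD49d (0.56), CD200 (0.73) and Tim-4 (0.37), higher, and CD44 (-0.63), CD11a (-0.62) and CD25 (-0.79), lower. GITR, CD73 and B220 kept their calls whichever mouse was left out, and the calls of these other 7 antibodies were each lost without at least 1 mouse. The count of 22 fell to 3 without CAL-101 mouse 3, to 7 without CAL-101 mouse 2, and to 10, 11 and 13 without control mouse 1, 2 or 3. For NK cells, 26 antibodies had an unadjusted p under 0.05, DESeq2 called 11, and edgeR called 13 without CAL-101 mouse 1, in which CD9 was highest.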

How the data were processed

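Tags and transcripts were measured in single cells from the tumours of 6 mice, 3 per group; each mouse is 1 replicate. The authors deposited unnormalised UMI counts per cell for genes and antibodies, counted by Cell Ranger (7.1.0) (per the file headers); mm10 and Seurat are named per the submitters' processing notes. The sources used here do not give cell calling, filters, doublet removal, clustering or labelling; no doublets were removed here, and deposited labels and clusters were used as given.

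Counts were summed per mouse and type (at least 10 cells). Shares of tags and CPM of transcripts were computed from the sums. Antibodies were compared with the isotype controls by limma 3.58.1 on log2(tags + 1), and types and groups by edgeR 4.0.16 quasi-likelihood with TMM in R 4.3.3, all adjusted by Benjamini-Hochberg at 0.05; both tests were tested on simulated data. DESeq2 1.42.0, other scalings, other references and left-out mice were alternatives. The precision of a type follows its depth: dendritic cells held 427963 tags in all and T cells 71709731. Replicates of a group differed by more than sampling noise. Clusters needed 50 cells.

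Antibodies named in the text were the 8 with the highest share in each type and the members of the group of antibodies a type is known for, the 10 (T cells) or 5 largest called differences each way, the 8 highest and lowest correlations, and the 5 smallest p each way between treatment groups; others named were chosen after their values were seen. Values of 2 antibodies are not reported here; counts over the panel include them. Antibody groups were set by target. The panel, the groups and the rule were chosen with earlier results of these data known.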

Additional observations from a re-analysis of the deposited data

Results flagged for a closer look

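Among 40 named shares of tags, each examined over the 6 mice, 1 had a mouse that stood apart: CD45 took 5.28% of tags in the dendritic cells of control mouse 2, against 4.003% to 4.45% in the other 5 mice. Chance would give about 1 in 20 such groups a mouse standing apart.

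The effect of CAL-101 was compared between T and NK cells with limma, on each mouse's difference of log2 CPM of tags between the 2 types. The difference passed for 10 antibodies of the panel, and 18 had an unadjusted p under 0.05. The effect in T cells less that in NK cells was above 0 for CD73 (1.28, adjusted p = 0.0161), Ly49A (0.77, adjusted p = 0.0481), CD49d (0.74, adjusted p = 0.0450), CD200 (0.65, adjusted p = 0.0450) and B220 (0.56, adjusted p = 0.00878). It was below 0 for CD11c (-1.14, adjusted p = 0.00878), CD49b (-0.86, adjusted p = 0.0135), TCR beta chain (-0.74, adjusted p = 0.0465), CD25 (-0.60, adjusted p = 0.0161) and CD11b (-0.35, adjusted p = 0.0481). The share of the T class that lay in clusters 0, 7, 9 and 13 differed between mice, as given above. With T cells of clusters 1 to 5 and NK cells of clusters 0, 7, 9 and 13 alone, an alternative chosen after seeing the data, 11 antibodies passed, 8 of them among the 10; CD200 (0.84, adjusted p = 0.0778) and TCR beta chain (-0.44, adjusted p = 0.350) did not pass.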

How the results depend on the processing

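The counts of antibodies above the isotype controls stayed within 1.5 times of the reported value under every alternative run, as did the counts for the 4 comparisons with NK cells (65 to 87 for T cells, 70 to 82 for neutrophils, 52 to 65 for cells labelled monocytes and 48 to 61 for dendritic cells). The median difference from NK cells changed sign in T cells (-0.20 to 0.0085) and dendritic cells (-0.06 to 0.037) relative to the isotype controls, in dendritic cells with DESeq2 (0.027), in neutrophils (0.042 to -0.21) and cells labelled monocytes (0.012 to -0.014) relative to all tags, in neutrophils relative to the isotype controls (-0.11), and in cells labelled monocytes without the cells of over 20000 tags (-0.0087). The direction of 6 antibodies called in T cells and of 7 called in neutrophils changed under at least 1 scaling. Single antibodies were followed only where named by rule, so those above the isotypes had the highest shares and those between types the largest called differences. Of their values, 376 of 376 above the isotypes and 620 of 620 between types kept their call. After that selection this stability does not extend to the panel. Some of these values are no separate check. Requiring 2 times the highest isotype control leaves an antibody's ratio and p as they were. Requiring a mean of at least 10 tags gave the main counts and medians in every comparison between types and between treatment groups. Of the values between treatment groups, for antibodies named by the smallest p, 195 kept their call, 33 lost it and 12 gained it. The 22 antibodies called in T cells with CAL-101 became 11 relative to the isotype controls and 34 with DESeq2; leaving out 1 mouse gave 3 (without CAL-101 mouse 3) to 18 (without CAL-101 mouse 1). The single call in NK cells became 11 with DESeq2, and 1 to 13 when 1 mouse was left out, 13 without CAL-101 mouse 1. The cause of these shifts was not tested.

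With the replicate block (the number in the labels as a term), 6 antibodies were called in T cells and 1 in NK cells. Whether the numbers pair the mice cannot be told from 3 mice per group. The correlation of deviations between same-numbered mice was -0.304, -0.251 and 0.386 in T cells and 0.0371, -0.264 and 0.219 in NK cells. Between mice of different numbers it ran from -0.389 to 0.497 in T cells and from -0.435 to 0.382 in NK cells.

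The median correlation of tag and transcript, 0.42, became 0.332 with tags per cell, 0.543 with tags over the isotype controls, 0.536 by Pearson correlation, 0.517 without clusters 6 and 12, and 0.364 over clusters of at least 500 cells; leaving out 1 mouse gave 0.358 (without control mouse 1) to 0.420. CD69 turned from -0.20 to 0.147 without clusters 6 and 12, and MERTK from -0.15 to 0.386 with tags per cell. Leaving out the cells of over 20000 tags gave 0.415. That alternative and the count of calls shared by all 4 scalings were chosen after seeing the data. Dendritic cells (11 to 39 cells per mouse) and neutrophils (down to 13) were the thinnest samples by cells.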

Other observations

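The 3 rarest labels differed in how well their tags matched their names; their cells were pooled over mice. The 13 basophils had CD63, a granule membrane protein, at 14.7% of tags, CD98 at 13.6%, Ly-6A/E at 12.9%, CD117 at 4.06% and FceRIa, the alpha chain of the IgE receptor, at 1.66%, against 0.0881% for FceRIa in T cells. Their CD45 share was 1.92%. In transcripts, the mast cell and basophil protease Cpa3 reached 6830 CPM and Fcer1a 1589 CPM in basophils. Both genes come from a longer list, whose other members, Mcpt8 and Gata2, are not given here. Of the 13 basophils, 7 lay in cluster 1, a T cell cluster, and all 13 were pooled. Whether they are basophils or mast cells was not tested. The 8 B cells had CD8a at 4.53% of tags, 6 of them lay in cluster 6, and all 4 B cell genes were at 0 in them while the haemoglobin gene Hbb-bs reached 124260 CPM. The 7 progenitors had CD20 at 4.29% and CD34 at 0.595% of tags, with Kit, Cd34 and Flt3 transcripts at 0.

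A few cells with very many tags moved single antibodies in single clusters. CXCR5 fell from 0.607% to 0.138% of tags in cluster 2 without the cells of over 20000 tags, CD40 from 0.630% to 0.273% in cluster 3, CD38 from 0.223% to 0.115% in cluster 5, CD107a from 0.475% to 0.307% in cluster 5, CD3 from 0.516% to 0.342% in cluster 8, and the isotype control HTK888 from 0.0507% to 0.0174% in cluster 8. The largest of these cells held 237001 tags.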
